A study of Mus musculus with 27 samples.

Results

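The genes described here are 6 chemokine receptors, Cxcr3 (ENSMUSG00000050232), Cxcr6 (ENSMUSG00000048521), Cxcr4 (ENSMUSG00000045382), Cx3cr1 (ENSMUSG00000052336), Ccr2 (ENSMUSG00000049103) and Ccr7 (ENSMUSG00000037944), chosen by name. The choice was made with earlier results of these data known. The receptors are 6 of the 47729 gene IDs in the count table, and all 6 passed the filter on low counts that left 14059 genes for testing. The data are RNA-seq counts from CD8+ T cells sorted out of MC38 tumours, which grow from a mouse colon adenocarcinoma line, by staining for PD-1, which restrains T cells after activation, and KLRG1, which marks late effector T cells. Mice had received either an isotype control (Iso) or a combined treatment named Tri; its components and the age, sex and strain of the mice are not stated in the labels. The 27 libraries form 6 groups. Iso PD1-KLRG1-, Iso PD1-KLRG1+ and Tri PD1-KLRG1+ have 4 libraries each, and the groups Tri PD1-KLRG1-, Tri PD1+KLRG1- and Tri PD1+KLRG1+ have 5 each. PD1+ cells were sequenced under Tri only, so treatments can be compared in PD1- cells alone.

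Chemokine receptors are seven-helix membrane proteins that couple to inhibitory G proteins and steer cells along gradients of small secreted ligands. In CD8+ T cells, Ccr7 serves entry into lymph nodes and marks naive and central memory cells, whereas Cxcr3 and Cxcr6 serve entry into and stay in inflamed tissue, Cx3cr1 marks late effector cells in blood, and Ccr2 serves recruitment to inflamed sites. Cxcr3 binds Cxcl9, Cxcl10 and Cxcl11, Cxcr6 binds Cxcl16, Cxcr4 binds Cxcl12, Cx3cr1 binds Cx3cl1, Ccr2 binds Ccl2, Ccl7, Ccl8 and Ccl12, and Ccr7 binds Ccl19 and Ccl21a. Monocytes and macrophages also carry much Ccr2 and Cx3cr1, and dendritic cells carry Ccr7. In RNA from sorted cells, fewer cells with a receptor and less of its RNA per cell cannot be told apart.

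Depth was 6991521 to 26284630 counts in 26 libraries and 93198 in Iso PD1-KLRG1+ replicate 3. There 3 counts are 27.6 CPM (counts scaled by TMM-adjusted library totals, the unit of all levels here). All 4 Iso PD1-KLRG1+ libraries detected fewer genes (5832 to 9427) than any other library (10608 to 15473), and Iso PD1-KLRG1- libraries detected 14652 to 15288. The 6 defining CD8 T cell markers (Cd8a, Cd8b1, Cd3d, Cd3e, Cd3g and Ptprc) were above 0 in every library. The summed level of 15 monocyte and macrophage markers was highest in Iso PD1-KLRG1+ replicate 4 (5010 CPM) and Iso PD1-KLRG1- replicate 4 (2273). It lay between 309 and 618 CPM in 5 other Iso libraries. In Iso PD1-KLRG1+ replicate 3 it was 9.21 CPM, which is 1 count there, with 14 of the 15 markers at 0. Replicates 1 to 4 of Iso PD1-KLRG1+, the group with the fewest genes detected, lacked 8, 7, 14 and 2 of the 15 markers. Iso PD1-KLRG1- libraries lacked 0 to 3 of them and Tri libraries 0 to 9. In the 19 Tri libraries the monocyte and macrophage sum was 99.8 to 372 CPM. The sum of 11 dendritic cell markers was 6184 CPM in Iso PD1-KLRG1+ replicate 4 and 147 to 466 CPM in the rest of that group. It was 710.4 to 1905 CPM in Iso PD1-KLRG1- and 134 to 543 CPM in the Tri libraries. Iso PD1-KLRG1+ replicate 4 also had the highest sum of 10 tumour or stroma markers, 3205 CPM, with 440 CPM or less in every other library. In Iso PD1-KLRG1+, replicates 3 and 4 stand apart from their group, as replicate 5 does in Tri PD1-KLRG1-, and results that rest on them are also given without these 3. The labels do not say that libraries of a group come from separate mice, so p-values measure only the spread between these samples, which may be technical.

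In the RefSeq gene order of GRCm38.p6, Cxcr6 lies on chromosome 9 between Fyco1 and Xcr1, and Cx3cr1 lies next to Ccr8 on the same chromosome, which also holds Ccr2. The longest open reading frames of the 6 receptors in GENCODE M21 were 57.4 to 61.6% identical over aligned bases in each pair. Cxcr3, Cxcr6, Cxcr4 and Ccr7 transcripts shared no window of 50 bases with another gene, whereas some windows of Ccr2 and Cx3cr1 also occurred in other genes, so that their counts are uncertain by the reads from them. Cx3cr1 shares 78 exon bases with the antisense gene Gm33858, and since the counting of strand is not given, reads from that stretch cannot be assigned to one of them.

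RefSeq start sites were found for 5 of the 6 receptors; Ccr7 had no entry. The 250 bases before the start of Cxcr6 are printed because Cxcr6 was the receptor called between treatments in both gates. They lie at chr9:123806227-123806476 of GRCm38.p6 on the plus strand, with capitals at the letters CTTTGA (TCF/LEF family) and ACCACA, which is TGTGGT (RUNX family) on the opposite strand:
Cxcr6: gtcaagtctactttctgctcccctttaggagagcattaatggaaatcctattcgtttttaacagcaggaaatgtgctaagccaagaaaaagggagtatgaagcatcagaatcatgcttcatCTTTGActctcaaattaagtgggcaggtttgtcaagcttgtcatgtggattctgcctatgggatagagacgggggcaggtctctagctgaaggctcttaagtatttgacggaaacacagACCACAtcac
The RUNX letters, here on the opposite strand in each case, were also found before Cxcr3 and Cx3cr1, and not before Cxcr4 and Ccr2. For comparison, 30 bases around each match are given, for Cxcr3 at chrX:101734240-101734269 (minus strand), for Cxcr6 at chr9:123806447-123806476 (plus) and for Cx3cr1 at chr9:120068333-120068362 (minus), with the match in capitals:
Cxcr3: tgtattcacctgACCACAggcgtggcagaa
Cxcr6: agtatttgacggaaacacagACCACAtcac
Cx3cr1: taaagatagggtACCACAcaggaaaccaga
The matches begin 110, 10 and 54 bases before the RefSeq start sites of Cxcr3, Cxcr6 and Cx3cr1. All 250 bases before the Cx3cr1 start also occur in a GENCODE transcript of that gene, so that its match lies in annotated transcript sequence. The same holds for 233 of the bases before Ccr2 and 122 before Cxcr3, against 0 before Cxcr6 and Cxcr4. The stretches are thus not alike as promoters. TGTGGT on either strand occurs in 14% of 32851 promoters of this length, and CTTTGA in 13.8%. The same search covered the T-box letters GGTGTGA, found in 3.33% of promoters, and the KLF letters CACCC, found in 52%. For the ZEB family the letters CAGGTG occurred in 17.2% of promoters, and the variant form CAGGTA in 10%. The STAT letters TTCNNNGAA occurred in 7.02% and the TATA box letters TATAAA in 12.4% of promoters. In Cxcr4 the KLF and TATA letters were found, in Cx3cr1 the KLF letters besides RUNX, and in Ccr2 none of those searched. None of the 3 matches overlaps another motif, though in Cxcr3 a CAGGTG match lies directly before it. A match describes letters only, not binding.

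**Figure D1:**
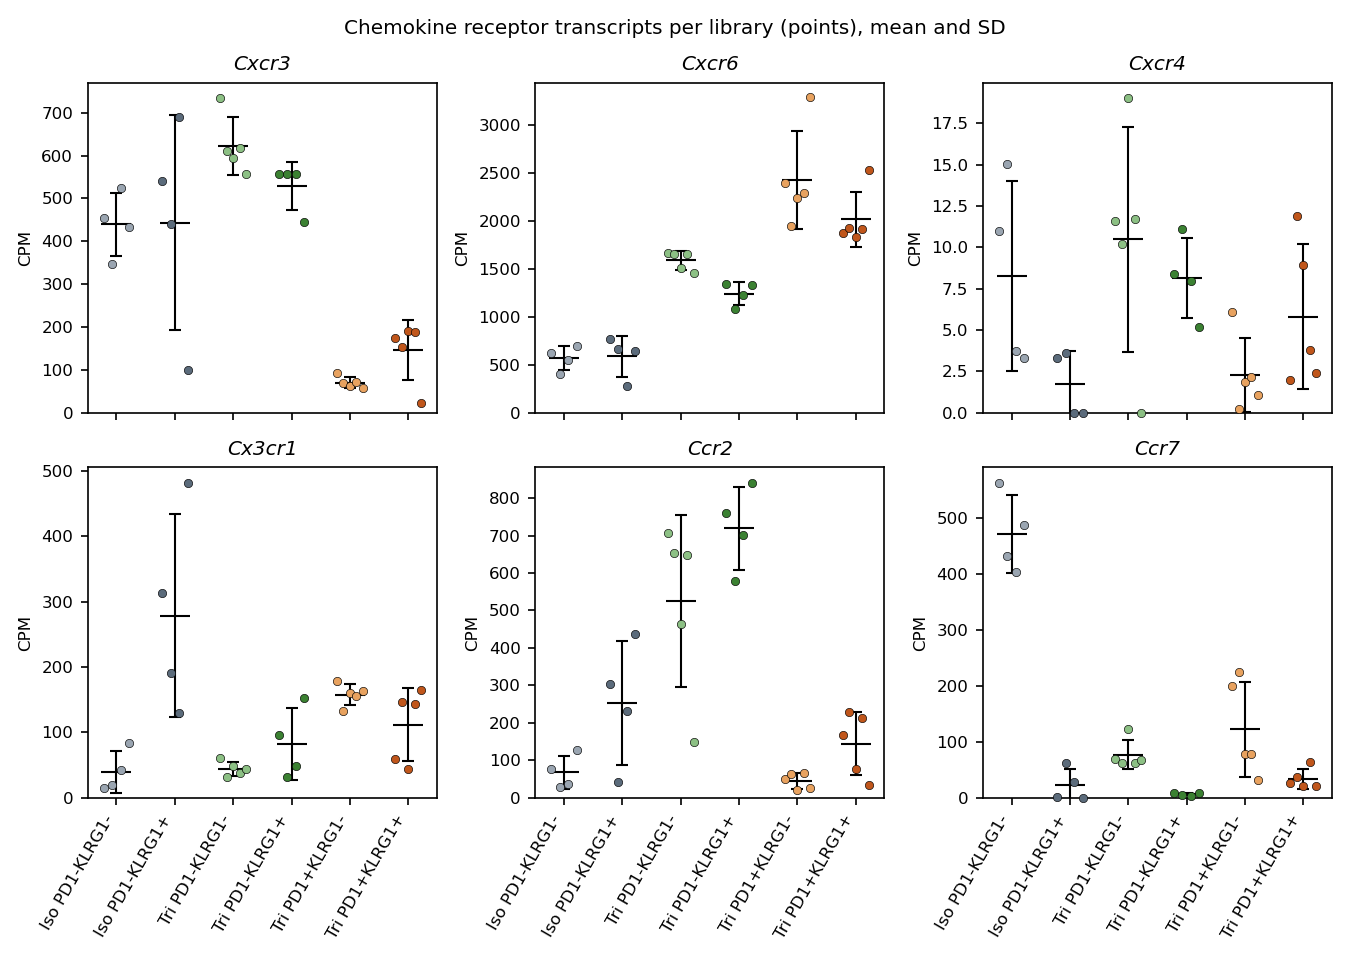
Levels in CPM (linear axis from 0) of the 6 receptors in the 27 libraries, by group. Points are libraries, the long tick is the group mean and the bars are the SD, drawn only as far as 0. Cxcr6 is lowest in both Iso groups, Cxcr3 in both PD1+ groups, and Ccr7 is highest in Iso PD1-KLRG1-.

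Per kilobase of merged exons, which allows genes to be compared, Cxcr6 had the highest mean level of the 6 receptors in every group, from 295 CPM per kb in Iso PD1-KLRG1- to 1258 in Tri PD1+KLRG1-. Cxcr3 followed in 5 groups, with 84.3 to 359.9 CPM per kb, and in Tri PD1+KLRG1- Ccr7 (61.9 CPM per kb) had a higher mean than Cxcr3 (40.7). Cxcr4 was lowest in 5 groups (0.957 to 5.80 CPM per kb), and in Tri PD1-KLRG1+ Ccr7 was below it (3.03 against 4.51 CPM per kb). Ccr2 and Cx3cr1 lay in between, with Ccr2 at 6.60 to 107 and Cx3cr1 at 8.80 to 61.8 CPM per kb.

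The order of the groups differed between receptors. Mean Cxcr3, in CPM, had the order Tri PD1-KLRG1- (623 ± 67.0, SD, n = 5), Tri PD1-KLRG1+ (529 ± 55.4, n = 4), Iso PD1-KLRG1+ (443 ± 251, n = 4), Iso PD1-KLRG1- (439.6 ± 73.4, n = 4), Tri PD1+KLRG1+ (146 ± 69.7, n = 5) and Tri PD1+KLRG1- (70.5 ± 13.4, n = 5). Only the step from Iso PD1-KLRG1- to Tri PD1+KLRG1+ separated neighbouring groups without overlap of their libraries. Cxcr6 had the order Tri PD1+KLRG1- (2429.96 ± 509.7 CPM, n = 5), Tri PD1+KLRG1+ (2016 ± 289.5, n = 5), Tri PD1-KLRG1- (1589 ± 99.8, n = 5), Tri PD1-KLRG1+ (1243 ± 121, n = 4), Iso PD1-KLRG1+ (589 ± 215, n = 4) and Iso PD1-KLRG1- (570.5 ± 127, n = 4). Its first pair and its last pair overlapped, and the 3 steps between did not.

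Cx3cr1 had its highest mean in Iso PD1-KLRG1+ (278 ± 156 CPM, n = 4), followed by Tri PD1+KLRG1- (158 ± 16.7, n = 5), Tri PD1+KLRG1+ (112 ± 55.8, n = 5), Tri PD1-KLRG1+ (81.9 ± 54.6, n = 4), Tri PD1-KLRG1- (44.4 ± 10.9, n = 5) and Iso PD1-KLRG1- (39.6 ± 32.0, n = 4). Ccr2 had the order Tri PD1-KLRG1+ (720.2 ± 111 CPM, n = 4), Tri PD1-KLRG1- (524 ± 229.8, n = 5), Iso PD1-KLRG1+ (253 ± 165, n = 4), Tri PD1+KLRG1+ (144 ± 85.0, n = 5), Iso PD1-KLRG1- (67.4 ± 45.0, n = 4) and Tri PD1+KLRG1- (44.6 ± 20.5, n = 5). For both receptors each pair of neighbours in the order overlapped. Ccr7 had the order Iso PD1-KLRG1- (472 ± 70.3 CPM, n = 4), Tri PD1+KLRG1- (123 ± 85.3, n = 5), Tri PD1-KLRG1- (76.7 ± 25.8, n = 5), Tri PD1+KLRG1+ (33.5 ± 17.8, n = 5), Iso PD1-KLRG1+ (22.3 ± 29.0, n = 4) and Tri PD1-KLRG1+ (5.999 ± 2.17, n = 4), and the first group alone stood clear of its neighbour.

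Cxcr4 was scarce in all groups, with means from 1.73 ± 2.002 CPM in Iso PD1-KLRG1+ (n = 4) to 10.5 ± 6.80 in Tri PD1-KLRG1- (n = 5) and all neighbours overlapping. No Cxcr4 read was counted in replicates 3 and 4 of Iso PD1-KLRG1+ or in replicate 5 of Tri PD1-KLRG1-. A count of 0 allows up to 27.6 CPM in the first of these (3 counts), which is above the level of Cxcr4 in any library, and 0.164 and 0.177 CPM in the others. Such limits cover counting error only. Cxcr4 passed the test in none of the 7 comparisons of groups.

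The comparison of treatments in PD1-KLRG1- cells asked which genes differ between Tri and Iso where neither sort marker is on the cell. Cxcr6 and Ccr2 rose under Tri, 2 of the 6 receptors, beside 113 of 14059 genes called in either direction (0.804%; called means a Benjamini-Hochberg adjusted p under 0.05 in edgeR's quasi-likelihood test). Cxcr3, Cx3cr1, Cxcr4 and Ccr7 did not pass the test. The median log2 fold change was 0.57 over the receptors and -0.09 over all genes tested. Its Iso PD1-KLRG1- libraries also serve as the reference for KLRG1 in Iso cells, so that those results are not independent.

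Cxcr6, which holds T cells in tissue that makes Cxcl16, was at 1668, 1659, 1512, 1653 and 1453 CPM in Tri PD1-KLRG1- replicates 1 to 5 and at 627, 402, 555 and 699 CPM in Iso PD1-KLRG1- replicates 1 to 4. No Iso library reached the lowest Tri library. Cxcr6 rose by 1.46 ± 0.20 on the log2 scale (SE, adjusted p = 0.000188), and by 1.52 without the 3 libraries that stand apart (adjusted p = 3.23e-06). It was 1.64 among the libraries whose names lack an RNA suffix (adjusted p = 0.0156) and 1.15 among those with it (adjusted p = 0.819, with 1 Iso library per gate).

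Ccr2, a receptor for monocyte-attracting chemokines that effector T cells also carry, was at 708, 653, 464, 648 and 147 CPM under Tri and at 77.0, 29.2, 36.4 and 127 CPM under Iso. Tri replicate 5 was the low library, and it still lay above all Iso libraries. The log2 fold change was 2.997 ± 0.61 (adjusted p = 0.0118), and the call ended without Iso replicate 2 (0.0918) or Iso replicate 3 (0.0688), and in limma-voom with treatment and number as a random block (0.164). It was 3.70 in the libraries without the RNA suffix (adjusted p = 0.0156) and 1.65 in those with it (adjusted p = 0.98). Without the 3 libraries that stand apart it was 3.25 (adjusted p = 0.00405). The monocyte and macrophage sum was 112 to 269 CPM under Tri and 309 to 2273 under Iso. Of its 15 markers, 2 had a log2 fold change above 0, and the median was -2.59. Only 1 of them, Fcer1g, was called, and it was lower under Tri. Within Iso, replicates 1 to 4 had sums of 552, 309, 425 and 2273 CPM, in the same rank order as their Ccr2. Within Tri, replicate 5 had the highest sum and the least Ccr2. The part of these transcripts in the Ccr2 values was not tested.

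Ccr7, the lymph node homing receptor, was at 68.7, 61.5, 122, 62.8 and 67.9 CPM under Tri and at 563, 433, 403 and 489 CPM under Iso. The groups did not overlap, yet the test did not pass (log2 fold change -2.58 ± 0.87, adjusted p = 0.239). With the 4 libraries of Iso PD1-KLRG1+ removed from the fit, the value was -2.60 with an adjusted p of 0.00196. Those libraries are in neither group compared, but they enter the shared spread, the count filter, the scaling and the name-series term. Cxcr3, a receptor for interferon-induced ligands, also did not overlap (556 to 735 CPM under Tri, 346 to 524 under Iso) and did not pass (0.57 ± 0.38, adjusted p = 0.942). The dendritic cell sum was 262 to 458 CPM under Tri and 710.4 to 1905 under Iso, and its part in the Ccr7 values was not tested.

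In PD1-KLRG1+ cells the same treatments were compared. Cxcr6 rose under Tri and Cx3cr1 fell, while 855 of 14059 genes (6.08%) were called, 768 of them higher under Tri. The median log2 fold change was 0.71 over the receptors and 0.34 over all genes. The Iso libraries here include the one with 93198 counts and the one with the most monocyte and macrophage transcripts.

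Cxcr6 was at 1340.2, 1079, 1224 and 1329 CPM in Tri PD1-KLRG1+ replicates 1 to 4 and at 766, 667, 276 and 646 CPM in Iso PD1-KLRG1+ replicates 1 to 4. The groups did not overlap, and the lowest value belongs to the shallow library, where 30 counts give a 95% exact interval of 186 to 395 CPM. The difference was 1.06 ± 0.20 on the log2 scale (adjusted p = 0.00191), and 0.75 without the 3 libraries that stand apart (adjusted p = 0.01). With only these groups in the fit it was 1.01 and the call ended (adjusted p = 0.246), as it did once the fit also held each library's count of detected genes (0.53, adjusted p = 0.323); Tri PD1-KLRG1+ libraries detected 11421 to 13336 genes and the Iso libraries 5832 to 9427. In limma-voom it was not called with sample weights (0.88, adjusted p = 0.562) or with the random block (1.01, adjusted p = 0.0627). It was 1.06 without the RNA suffix (adjusted p = 0.0345) and 1.13 with it (adjusted p = 0.0948).

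Cx3cr1, the fractalkine receptor of late effector T cells, was at 95.6, 30.9, 48.4 and 153 CPM under Tri and at 313, 190.2, 129 and 482 CPM under Iso. The groups overlapped in Tri replicate 4 and Iso replicate 3. Cx3cr1 had a log2 fold change of -1.81 ± 0.46 (adjusted p = 0.0194), and -1.90 without the 3 libraries that stand apart (adjusted p = 0.0253). The call ended without Tri replicate 2 (0.0717) or Tri replicate 3 (0.0614), with only these groups in the fit (-1.85, adjusted p = 0.139) and with sample weights in limma-voom (-1.62, adjusted p = 0.499). Values within the name series were -1.87 (adjusted p = 0.0774) without and -1.57 (adjusted p = 0.0298) with the suffix. The monocyte and macrophage sum was 154 to 178 CPM under Tri and 9.21 to 5010 under Iso. Of its 15 markers, 1 had a log2 fold change above 0, and the median was -4.15. Fcer1g and Lyz2 were the 2 called, and both were lower under Tri. The sum of 9.21 CPM in 1 Iso library stands for 1 count. In that library Cx3cr1 was at 129 CPM, from 14 counts with a 95% exact interval of 70.5 to 216 CPM. This interval holds 2 of the 4 Tri values and lies above the other 2.

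Ccr2 was at 760.0, 578, 701 and 841 CPM under Tri and at 303, 41.2, 230.3 and 436 CPM under Iso, without overlap and without passing the test (1.54 ± 0.60, adjusted p = 0.124). Ccr7 was low on both sides, with 7.80, 5.18, 3.31 and 7.71 CPM under Tri and 0.435, 61.3, 27.6 and 0 CPM under Iso. The 27.6 CPM of Iso replicate 3 stand for 3 counts, and the 0 of replicate 4 allows up to 0.164 CPM. The Iso libraries spread on both sides of the Tri libraries, and the test did not pass (-1.66 ± 0.99, adjusted p = 0.337). The sign rests on Iso replicate 2, without which the value was 3.73 (adjusted p = 0.0679).

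**Figure D2:**
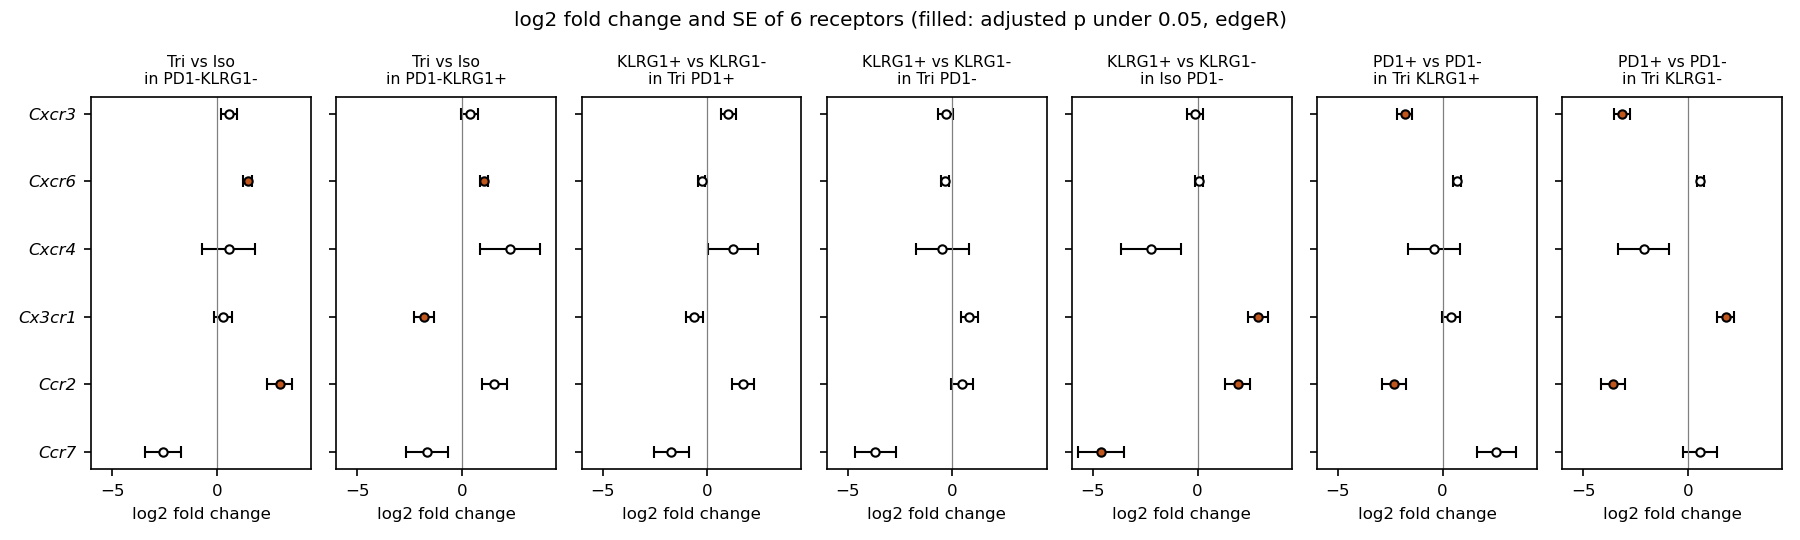
Log2 fold changes (horizontal axis) with SE bars of the 6 receptors in the 7 comparisons of groups, the first-named group over the second. Filled points have an adjusted p under 0.05; there are 12 of them, none in either comparison of KLRG1 gates under Tri.

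KLRG1+ and KLRG1- cells were compared within 3 settings. In Iso PD1- cells, Cx3cr1 and Ccr2 rose with KLRG1 and Ccr7 fell, 3 of the 6 receptors, beside 1218 of 14059 genes called (8.66%, of which 174 rose and 1044 fell). The median log2 fold change was -0.02 over the receptors and -0.52 over all genes. Cxcr6 (0.08 ± 0.20, adjusted p = 0.886) and Cxcr3 (-0.12 ± 0.40, adjusted p = 0.918) had values near 0. The count of detected genes moves with this comparison, at 5832 to 9427 in KLRG1+ and 14652 to 15288 in KLRG1- libraries. With that count in the fit, Cx3cr1 was called (3.91, adjusted p = 0.0213), and Ccr7 (-4.53, adjusted p = 0.292) and Ccr2 (2.12, adjusted p = 0.586) were not.

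Cx3cr1 was at 313, 190.2, 129 and 482 CPM in Iso PD1-KLRG1+ and at 14.2, 18.6, 41.7 and 84.1 CPM in Iso PD1-KLRG1- replicates 1 to 4. The groups did not overlap. Cx3cr1 had a log2 fold change of 2.90 ± 0.48 (adjusted p = 0.000337), and it was called in all 13 other settings and after leaving out each of the 8 libraries. Without the 3 libraries that stand apart it was 2.98 (adjusted p = 0.0006), within the series without the suffix 3.12 (adjusted p = 0.00355) and with it 2.43 (adjusted p = 0.00499). In each group replicate 4, the library with the most monocyte and macrophage transcripts, had the most Cx3cr1, and without Iso PD1-KLRG1+ replicate 4, or any other single library, the value stayed between 2.65 and 3.28.

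Ccr7 went the other way, with 0.435, 61.3, 27.6 and 0 CPM in the KLRG1+ libraries against 563, 433, 403 and 489 CPM in the KLRG1- libraries. The groups were far apart. Ccr7 had a log2 fold change of -4.61 ± 1.09 (adjusted p = 0.00751), and -3.99 without the 3 libraries that stand apart (adjusted p = 0.0142). Its size rests on Iso PD1-KLRG1+ replicate 2, the KLRG1+ library with 61.3 CPM, without which it was -10.01 (adjusted p = 2.39e-05). It was -3.95 in the series without the suffix (adjusted p = 0.0148); in the other series the KLRG1+ library had no Ccr7 count, and the fitted value depends on the prior count. With only these groups in the fit the call ended (-5.01, adjusted p = 0.161), as with sample weights in limma-voom (-6.42, adjusted p = 0.427).

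Ccr2 was at 303, 41.2, 230.3 and 436 CPM in the KLRG1+ and at 77.0, 29.2, 36.4 and 127 CPM in the KLRG1- libraries, which overlapped. Ccr2 rose by 1.92 ± 0.60 on the log2 scale (adjusted p = 0.0462). The call ended in 6 of 8 fits that left out 1 library, all but those without Iso PD1-KLRG1- replicate 4 or Iso PD1-KLRG1+ replicate 2 (adjusted p up to 0.147, without Iso PD1-KLRG1+ replicate 4), and without the 3 libraries that stand apart (1.40, adjusted p = 0.174). It also ended with only these groups in the fit (1.94, adjusted p = 0.117), and in limma-voom with sample weights (1.25, adjusted p = 0.573) or the random block (1.85, adjusted p = 0.216). Within the name series it was 1.98 (adjusted p = 0.0529) and 1.69 (adjusted p = 0.524). The highest Ccr2 in each group lay in the library with the most monocyte and macrophage transcripts. Of the 15 markers, none was called between the gates, 13 had a log2 fold change above 0, and the median was 0.68. The part of those transcripts was not tested.

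**Figure D3:**
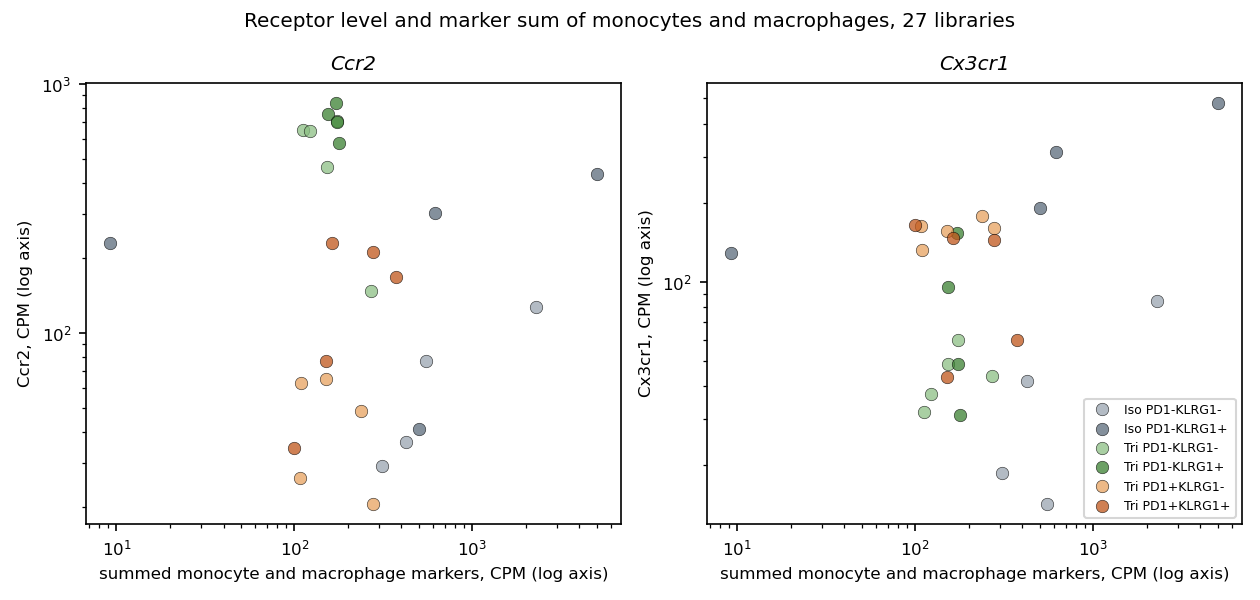
Ccr2 and Cx3cr1 levels (vertical, CPM, log axis) against the summed level of 15 monocyte and macrophage markers (horizontal, CPM, log axis) in 27 libraries, coloured by group. Tri PD1-KLRG1+ has the highest mean Ccr2, at marker sums of 154 to 178 CPM, and its Ccr2 values overlap those of Tri PD1-KLRG1-. Iso PD1-KLRG1+ replicate 3 holds 129 CPM of Cx3cr1 (14 counts) at a sum of 9.21 CPM, which is 1 count in that shallow library.

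Under Tri, no receptor was called between KLRG1+ and KLRG1- cells in the main edgeR fit. In Tri PD1+ cells 8 of 14059 genes were called (0.0569%), and the receptor values ran from -1.71 ± 0.84 for Ccr7 (adjusted p = 0.767) to 1.71 ± 0.53 for Ccr2 (adjusted p = 0.414). Ccr2 was at 168, 229, 77.4, 212 and 34.4 CPM in Tri PD1+KLRG1+ and at 48.5, 62.7, 20.5, 65.1 and 26.1 CPM in Tri PD1+KLRG1-, which overlapped. Cxcr3 was at 174, 154, 189.9, 188 and 24.0 CPM against 91.9, 69.0, 61.5, 73.0 and 57.2 CPM (1.01 ± 0.35, adjusted p = 0.424). In Cxcr3, replicate 5 of Tri PD1+KLRG1+ was the only library of its group below any of the other group.

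In Tri PD1- cells no gene at all was called by edgeR (0%), although 675 genes had an unadjusted p under 0.05 and DESeq2 called 192. Ccr7 did not overlap between the gates, at 7.80, 5.18, 3.31 and 7.71 CPM in KLRG1+ against 68.7, 61.5, 122, 62.8 and 67.9 CPM in KLRG1- libraries (-3.69 ± 0.99, adjusted p = 0.833). Cxcr6 did not overlap either, with 1079 to 1340.2 CPM against 1453 to 1668 (-0.33 ± 0.19, adjusted p = 1). Cx3cr1 was at 95.6, 30.9, 48.4 and 153 CPM in KLRG1+ and at 60.1, 31.9, 48.7, 37.2 and 43.9 CPM in KLRG1- libraries (0.82 ± 0.42, adjusted p = 1).

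Whether the KLRG1 difference itself changed with treatment was tested as an interaction in PD1- cells, in which 505 of 14059 genes were called (3.59%) and no receptor was in the fit of all libraries. Without the 3 libraries that stand apart, Cxcr6 was called (-0.77, adjusted p = 0.0391), against -0.41 ± 0.28 (adjusted p = 0.518) with them. The value for Cx3cr1 was -2.09 ± 0.63 (adjusted p = 0.0619), a smaller KLRG1 difference under Tri than under Iso. It lay on the called side with RLE scaling (adjusted p = 0.0436), without the count filter (0.0417), with DESeq2 (0.00619), and without Iso PD1-KLRG1- replicate 4 (0.0353) or Iso PD1-KLRG1+ replicate 2 (0.0485) or 3 (0.0434), with values from -2.46 to -2.13. For Ccr7 it was 0.92 ± 1.29 (adjusted p = 0.88), and 6.33 without Iso PD1-KLRG1+ replicate 2, where it was called (adjusted p = 0.00864); it was also called in the suffix series, whose Iso PD1-KLRG1+ library has no Ccr7 count. Ccr2 was called without the count filter (-1.47, adjusted p = 0.0318). The interaction of KLRG1 with PD1 under Tri had no called gene by edgeR (0%), 638 with an unadjusted p under 0.05, and 197 by DESeq2; among receptors Cxcr3 had 1.33 ± 0.51 (adjusted p = 0.739) and Cx3cr1 -1.42 ± 0.58 (adjusted p = 0.85).

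PD1+ and PD1- cells were compared under Tri within each KLRG1 gate. Cxcr3 and Ccr2 fell in PD1+ cells of both gates, and Cx3cr1 rose in PD1+KLRG1- cells. In KLRG1+ cells 2 of the 6 receptors were called beside 169 of 14059 genes (1.2%), and in KLRG1- cells 3 of the 6 beside 219 genes (1.56%). The median log2 fold change of the receptors was -0.01 and -0.75, against -0.01 and 0.06 over all genes. Both comparisons come from separate libraries but from one fit. The summed level of 6 NK or innate-like markers also differed without overlap, at 139 to 299.6 CPM in Tri PD1+KLRG1- against 8.08 to 25.8 in Tri PD1-KLRG1-, and at 26.1 to 193 CPM in Tri PD1+KLRG1+ against 0.123 to 21.99 in Tri PD1-KLRG1+. Of these markers Kit and Klrb1b rose in both gates, and 2 to 5 of the 6 were at 0 in each library. The sum of 5 CD4 or regulatory T cell markers did not overlap in the KLRG1+ gate. It was 105.7 to 218.5 CPM in Tri PD1+KLRG1+ against 39.2 to 59.97 in Tri PD1-KLRG1+. In the KLRG1- gate it overlapped, at 97.3 to 292.6 CPM in Tri PD1+KLRG1- against 53.9 to 175.9 in Tri PD1-KLRG1-. None of these 5 markers was called in either gate. The part of both lists in the receptor values was not tested.

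In KLRG1- cells Cxcr3 was at 91.9, 69.0, 61.5, 73.0 and 57.2 CPM in Tri PD1+KLRG1- and at 735, 612, 594, 617 and 556 CPM in Tri PD1-KLRG1- replicates 1 to 5. The gap between the groups was wide in comparison with their spread. Cxcr3 had a log2 fold change of -3.15 ± 0.38 (adjusted p = 1.55e-05), and it stayed between -3.22 and -3.03 when any of the 10 libraries was left out. It was -3.11 in the series without the suffix (adjusted p = 1.56e-06) and -3.15 in the other (adjusted p = 0.545), and -3.11 without the 3 libraries that stand apart (adjusted p = 5.61e-06).

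In KLRG1+ cells Cxcr3 was at 174, 154, 189.9, 188 and 24.0 CPM in Tri PD1+KLRG1+ and at 556, 557, 557 and 446 CPM in Tri PD1-KLRG1+. The groups did not overlap, and replicate 5 of the PD1+ group was far below its group. The log2 fold change was -1.82 ± 0.37 (adjusted p = 0.00904), called after leaving out each of the 9 libraries (-2.04 to -1.52). It was -1.65 without the suffix (adjusted p = 0.0028) and -2.07 with it (adjusted p = 1). With only these groups in the fit the call ended (-1.78, adjusted p = 0.103).

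Ccr2 in KLRG1- cells was at 48.5, 62.7, 20.5, 65.1 and 26.1 CPM in the PD1+ libraries and at 708, 653, 464, 648 and 147 CPM in the PD1- libraries. The groups did not overlap (-3.58 ± 0.57, adjusted p = 0.000404), and leaving out any of the 10 libraries kept the call. Without the 3 libraries that stand apart it was -3.79 (adjusted p = 0.000167). Its values were -3.78 (adjusted p = 0.00555) and -3.10 (adjusted p = 0.684) in the series without and with the suffix. In KLRG1+ cells Ccr2 was at 168, 229, 77.4, 212 and 34.4 CPM against 760.0, 578, 701 and 841 CPM. Here it had a log2 fold change of -2.33 ± 0.56 (adjusted p = 0.0308), but 8 of the 9 fits that left out 1 library lost the call, all but that without Tri PD1+KLRG1+ replicate 2 (adjusted p up to 0.108, without Tri PD1+KLRG1+ replicate 3). Within the series it was -2.07 (adjusted p = 0.104) and -2.77 (adjusted p = 1).

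Cx3cr1 in KLRG1- cells was at 179, 132, 159.5, 156 and 163 CPM in the PD1+ libraries and at 60.1, 31.9, 48.7, 37.2 and 43.9 CPM in the PD1- libraries, without overlap. The log2 fold change was 1.80 ± 0.41 (adjusted p = 0.0183). The call ended in 5 of 10 fits that left out 1 library, those without Tri PD1-KLRG1- replicate 2 (0.0513), 4 (0.0708) or 5 (0.058) or Tri PD1+KLRG1- replicate 1 (0.0657) or 3 (0.0514), with values of 1.65 to 1.79. Without the 3 libraries that stand apart it was 1.74 (adjusted p = 0.0353), and within the series it was 1.75 (adjusted p = 0.314) and 2.003 (adjusted p = 0.093). With the count of detected genes in the fit it was 1.55 and not called (adjusted p = 0.102). In KLRG1+ cells Cx3cr1 was at 59.8, 147, 43.1, 144 and 164 CPM in PD1+ libraries, among the values of the PD1- libraries (0.38 ± 0.43, adjusted p = 0.945). The monocyte and macrophage sum was 107 to 277 CPM in Tri PD1+KLRG1- and 112 to 269 in Tri PD1-KLRG1-, and none of its 15 markers was called.

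Cxcr6 was higher in every PD1+ than in every PD1- library of its KLRG1 gate, at 2393, 1943, 2234, 2289 and 3292 CPM in Tri PD1+KLRG1- against at most 1668. In Tri PD1+KLRG1+ it was at 1877, 1923, 1835, 1916 and 2530.4 CPM against at most 1340.2. Neither difference passed the test (0.60 ± 0.18, adjusted p = 0.102, and 0.66 ± 0.19, adjusted p = 0.0981). Each was called in 8 of 14 other settings, among them RLE scaling (adjusted p = 0.0309 and 0.0244) and DESeq2 (0.000516 and 0.0001). Ccr7 in KLRG1+ cells did not overlap either, with 20.6 to 63.0 CPM in PD1+ and 3.31 to 7.80 CPM in PD1- libraries (2.57 ± 0.94, adjusted p = 0.231), and it was called once the 4 libraries of Iso PD1-KLRG1+ were removed from the fit (2.56, adjusted p = 0.00216).

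Of 11 other conventional chemokine receptors examined, 7 passed the count filter, and of 5 atypical receptors only Ccrl2 did. Ccr9, a gut-homing receptor, had 15.5, 18.8, 23.7 and 26.7 CPM in Iso PD1-KLRG1- and no count in any Iso PD1-KLRG1+ library, the group with the fewest genes detected (adjusted p = 0.0299); its fitted fold depends on the prior count. No other of these receptors was called in the 7 comparisons. Ccr8, Xcr1 and Ccrl2 had their highest means in Tri PD1+KLRG1- (96.1 ± 25.1, 36.7 ± 6.30 and 91.8 ± 27.3 CPM, n = 5), against 7.73 ± 10.3, 8.75 ± 5.64 and 13.2 ± 2.48 CPM in Tri PD1-KLRG1-, without passing the test (Ccr8 adjusted p = 0.365, Ccrl2 adjusted p = 0.136). Ccr4, Ccr10, Cxcr1, Cxcr2 and the other atypical receptors did not pass the filter.

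**Figure D4:**
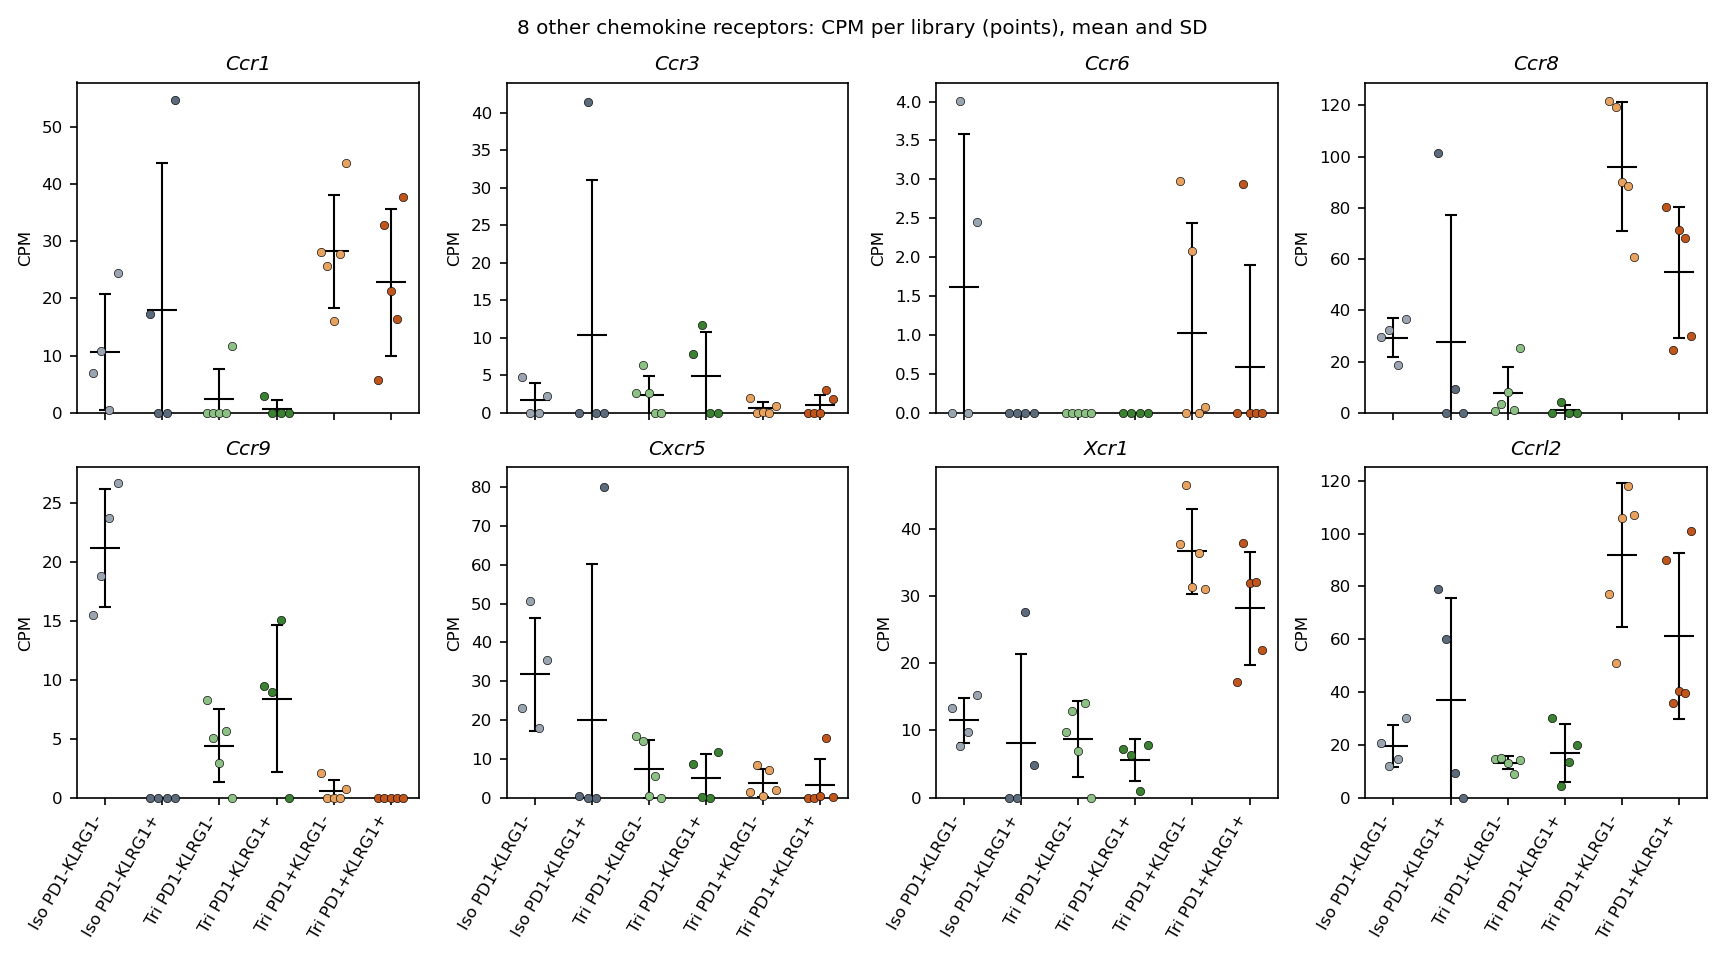
CPM (linear axis from 0) of 8 other chemokine receptors that passed the count filter, by library and group. Points are libraries, ticks are means and bars are the SD, drawn only as far as 0. Ccr9 was called in 1 comparison, and the other panels show receptors that passed no test.

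Of the 12 ligands of the 6 receptors, 8 passed the filter and none was called in any of the 7 comparisons. Cxcl10, a Cxcr3 ligand, had mean levels of 64.6 ± 45.4 and 62.8 ± 60.2 CPM in Iso PD1-KLRG1- and Iso PD1-KLRG1+ and of 7.87 to 16.6 CPM in the Tri groups. Cxcl16, the Cxcr6 ligand, reached 280.4 CPM in 1 Iso PD1-KLRG1+ library, the other 3 being at 0. Of 18 genes of receptor signalling and desensitisation, 1 was called with KLRG1 in Iso PD1- cells, no larger a share than the 8.66% of all genes: Gnai2, an inhibitory G protein subunit, rose (0.53 ± 0.15, adjusted p = 0.0254). In PD1+KLRG1- cells, where 1.56% of all genes were called, 1 of the 18 was: Pik3r5, a regulator of the phosphoinositide kinase downstream of G proteins, fell (-1.60 ± 0.41, adjusted p = 0.0405).

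Among 11 genes of egress, lymph node homing and retention, 6 fell and none rose in PD1+ against PD1- cells of the Tri KLRG1- gate, where Cxcr3 and Ccr2 fell and 1.56% of all genes were called: Itgb7, Itga4, S1pr1, Klf3, Cd69 and Klf2. The list's median log2 fold change was -2.50, against 0.06 over all genes. S1pr1, the sphingosine phosphate receptor for exit from tissue, was at 9.16 ± 9.83 against 321 ± 28.9 CPM (-5.20 ± 0.72, adjusted p = 5.75e-05). In the KLRG1+ gate, with 1.2% of all genes called, 3 fell, Itgb7, Cd69 and S1pr5. S1pr5 had no count in any Tri PD1+KLRG1+ library and 43.5 ± 27.9 CPM in Tri PD1-KLRG1+. In the other comparisons of groups at most 1 gene of this list was called.

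Of 13 transcription factors linked to these receptor programmes, 2 rose and 2 fell with KLRG1 in Iso PD1- cells, where Cx3cr1 rose and Ccr7 fell and 8.66% of all genes were called. Zeb2, a driver of terminal effector differentiation, rose by 3.33 ± 0.64 (90.8 ± 39.7 against 9.66 ± 6.04 CPM, adjusted p = 0.00129), and Tbx21, which encodes T-bet, by 1.38 ± 0.25 (adjusted p = 0.000671). Lef1, a factor of naive and memory cells, had a log2 fold change of -1.50 ± 0.35 (adjusted p = 0.00727), and Id3, another memory factor, was at 0 in all 4 libraries of Iso PD1-KLRG1+, the group with the fewest genes detected. Among PD1+KLRG1- cells of Tri, Lef1 (-3.11 ± 0.33, adjusted p = 3.25e-06), Klf2 (-4.06 ± 0.80, adjusted p = 0.00445), Foxo1 (-2.03 ± 0.41, adjusted p = 0.00544) and Id3 (-4.07 ± 0.98, adjusted p = 0.04) fell, 4 of the 13 beside 1.56% of all genes, and in PD1+KLRG1+ cells Foxo1, Lef1 and Id3 did, 3 of the 13 beside 1.2%. Under Tri, Id2 rose in PD1-KLRG1- cells (1.20 ± 0.25, adjusted p = 0.012), as Cxcr6 and Ccr2 did, 1 of the 13 beside 0.804% of all genes. In PD1-KLRG1+ cells, with 6.08% of all genes called, 2 of the 13 rose under Tri. These were Id2 (0.97 ± 0.25, adjusted p = 0.0211) and Id3 (mean 9.21 against 0 CPM, adjusted p = 0.00281). With KLRG1 in Tri PD1+ cells, where 0.0569% of all genes were called, Id3 alone of the list was called and fell (mean 0 against 2.36 CPM, adjusted p = 0.0217).

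Across the 27 libraries, the gene whose log2 CPM was most like that of a receptor, among 8807 genes averaging 10 CPM or more, was Itgb7 for Cxcr3 (Pearson r 0.919), Cblb for Cxcr6 (0.908), Zeb2 for Cx3cr1 (0.854), Gzmk for Ccr2 (0.824) and Lta for Ccr7 (0.874). For Cxcr4 it was Tmem154 (0.892, among 8808 genes). S1pr1 was among the 5 genes most like Cxcr3 (0.883). These correlations are descriptions: the libraries share groups, name series and differences in depth, and replicates of a treatment may share an animal. When the 4 libraries of Iso PD1-KLRG1+ were left out (n = 23), another gene came first for each receptor: Trbv12-2 for Cxcr3 (0.962), Bhlhe40 for Cxcr6 (0.925), Arid4b for Cxcr4 (0.904), Ctsd for Cx3cr1 (0.848), Itgax for Ccr2 (0.931) and H2-Eb1 for Ccr7 (0.857). Itgax is on the dendritic cell list, and H2-Eb1 encodes a class II molecule of antigen-presenting cells; their part in these values was not tested. Itgb7 (0.953), Zeb2 (0.83) and Tmem154 (0.837) came next for Cxcr3, Cx3cr1 and Cxcr4. Among the receptors, the highest correlation was between Cxcr3 and Ccr2 (0.61) and the lowest between Cxcr3 and Cxcr6 (-0.56).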

How the data were processed

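The deposited table holds whole-number counts per Ensembl mouse gene for 27 libraries, 1 column each, with no normalisation by the authors (from the values). DESeq2 1.26.0 is named in the submitters' processing notes without a role; which aligner, counter, strand setting, build and annotation were used is not given in the sources used here. GENCODE M21 names gave symbols to 47224 of 47729 IDs. The single-cell data that the series text mentions were not analysed here.

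All 27 libraries were fitted together with edgeR 4.0.16 in R 4.3.3 (TMM, filterByExpr with a minimum count of 10, robust quasi-likelihood, a mean per group and a term for the name series, that is, whether the description carries an RNA suffix, as replicate 4 of each Iso group and replicates 4 and 5 under Tri do). P-values were adjusted by Benjamini-Hochberg over 14059 genes within each of 7 comparisons of groups and 2 interactions (54 tests of receptors), with a threshold of 0.05. Standard errors were derived as |log2 fold change| over the root of F. Library totals were 6991521 to 26284630 counts, and 93198 in 1 library. Correlations used log2 CPM (prior count 2), and limits for 0 use 3 counts. Alternatives used limma 3.58.1 and DESeq2 1.42.0, and figures matplotlib 3.10.9.

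The members, gene lists and tests were chosen with earlier results of these data known. Shares of a list called, set beside the share of all genes, are thus descriptions and no test of the list. Klf2 is on the egress list and also on the transcription factor list. The genes named are the 6 receptors, up to 4 called genes per list and comparison with the smallest p, and the genes most like each receptor; others, such as Klf3, Klf2, Itga4, Ccr8, Xcr1, Ccrl2, Cxcl10 and Cxcl16, were named after their values were seen. The fit was tested on simulated data for Tri against Iso in PD1-KLRG1- cells with 14059 genes: of 50 genes changed by each fold it recovered 0 at 2-fold, 18 at 4-fold, 27 at 8-fold and 31 at 16-fold, with 0 false calls. Some items are not reported here.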

Additional observations from a re-analysis of the deposited data

Results flagged for a closer look

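Receptor levels were tested for single libraries far from their group in 36 sets of libraries, and 4 values, from 3 libraries, stood out by Dixon's criterion, where chance gives about 1 in 20 sets. Cxcr3 was at 446 CPM in Tri PD1-KLRG1+ replicate 4, below the 3 others at 556 to 557. Replicate 5 of Tri PD1+KLRG1+ was far from its group in both Cxcr3 (24.0 CPM, the others 154 to 189.9) and Cxcr6 (2530.4 CPM, the others 1835 to 1923). Ccr7 was at 122 CPM in Tri PD1-KLRG1- replicate 3, above the others at 61.5 to 68.7. No reason for these values was tested.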

How the results depend on the processing

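Each of the 12 called receptor values kept its sign in every alternative run. Of 1332 receptor values compared, 31 uncalled ones changed sign and 1 reversed with a call: Ccr7 for Tri against Iso in PD1-KLRG1+ cells was 9.93 (adjusted p = 0.00763) with the RNA-suffix libraries alone, where the Iso library has no Ccr7 count. Equal replicate numbers were not treated as pairs. Titles repeat the numbers across the gates of a treatment, and the description names run in sequence within a number, yet no label states a shared mouse. Correlations of deviations between same-numbered libraries ran from -0.07 to 0.149, with at most 1 over 0.1 in each pair of groups. Even so, 32 of 62 library and group pairs correlated best with their own number, among 4 or 5 libraries in each group. That is a hint from the data that the number, or the name series that goes with it, may carry some shared deviation. The name-series difference was left in these deviations. Each same-numbered correlation over 0.1 lay between suffix libraries, replicates 4 or 5 under Tri. The part of the name series was not tested. If equal numbers share a mouse, the main comparisons of gates within a treatment leave out that pairing. In another fit a replicate block took the place of the name-series term, by treatment and number for the comparisons of gates. For Tri against Iso the block was the number alone, which joins libraries of different treatments and is no pairing by mouse. With these blocks, 3 receptors instead of 2 were called for Tri against Iso in PD1-KLRG1+ cells (Ccr2 1.67, adjusted p = 0.0377). No other count of receptors changed. All genes called went from 8 to 5 for KLRG1 in Tri PD1+ and from 505 to 277 for the KLRG1 by treatment interaction.

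Counts of receptors called changed as follows; exchanges of receptors at an equal count are not listed. Tri against Iso in PD1-KLRG1- cells had 2, and 0 with the suffix libraries alone, 4 with sample weights in limma-voom, 3 without the filter, with only the groups compared or without the 4 Iso PD1-KLRG1+ libraries, 1 to 2 leaving out a library. In PD1-KLRG1+ cells it had 2, and 4 without the count filter, 1 without suffix libraries, with a random block or with genes detected as a covariate, 0 with only the groups compared or sample weights, 1 to 2 leaving out a library. KLRG1 in Tri PD1+ had 0, and 3 without the filter and 1 without suffix libraries. KLRG1 in Tri PD1- had 0, and 1 without the filter, with only the groups compared, with DESeq2 or without the 4 Iso PD1-KLRG1+ libraries. KLRG1 in Iso had 3, and 1 with only the groups compared, sample weights or genes detected, 2 to 3 leaving out a library. It had 2, with Ccr2 lost, within either name series, with the random block and without the 3 libraries that stand apart. PD1 in Tri KLRG1+ had 2, and 4 without the filter or the 4 Iso PD1-KLRG1+ libraries, 1 without suffix libraries, 0 with them alone, 1 to 2 leaving out a library. It had 3 with RLE, DESeq2, sample weights or genes detected, and without the 3 libraries that stand apart. PD1 in Tri KLRG1- had 3, and 0 with the suffix libraries alone, 5 with sample weights, 2 without suffix libraries or with genes detected, 4 with RLE, only the groups compared, DESeq2 or the random block and without the filter, the 3 libraries that stand apart or the 4 Iso PD1-KLRG1+ libraries, 2 to 3 leaving out a library. The KLRG1 by treatment interaction had 0, and 1 with RLE, suffix libraries, DESeq2 or without the 3 libraries that stand apart, 2 without the filter, 0 to 2 leaving out a library.

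All genes called ranged over the alternatives from 0 to 1098 for Tri against Iso in PD1-KLRG1- and 0 to 2107 in PD1-KLRG1+ cells. For KLRG1 they ranged from 0 to 205 in Tri PD1+, 0 to 192 in Tri PD1- and 13 to 2341 in Iso. For PD1 the range was 1 to 699 in Tri KLRG1+ and 7 to 2018 in Tri KLRG1-. It was 0 to 1662 for the KLRG1 by treatment and 0 to 197 for the KLRG1 by PD1 interaction. The extremes came from the suffix libraries, only the groups compared, sample weights and DESeq2. RLE scaling moved the median of all genes by -0.19 (Tri against Iso in PD1-KLRG1+), 0.15 (KLRG1 in Iso), 0.10 (PD1 in Tri KLRG1+) and -0.17 (KLRG1 by treatment). The 36 group means moved by less than 1 SD with raw totals. The cause of these changes was not tested. Depth limits Iso PD1-KLRG1+ replicate 3, where 3 counts are 27.6 CPM.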
